A study of Mus musculus with 30 samples.

Results

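The data described here are 12 of the 30 aortic libraries of the series, namely 6 from control mice given hydralazine and 6 from untreated control mice. They were chosen by the genotype and treatment labels and then sorted by a measured value, the level of *Col3a1*, which encodes the chain of type III collagen. Libraries above 10000 CPM, the count of a gene scaled to a fixed file total, form the Col3a1-high stratum and libraries below it the Col3a1-low stratum. This split was proposed as a stand-in for harvest at 30 or 60 days of age, because the labels name both ages without saying which of these 12 libraries had which. Whether the strata are the ages was not tested, and they are named here by *Col3a1* only.

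All mice were males on the C57BL/6J background, and the control genotype is *Col3a1*+/+, labelled WT. Hydralazine was given in the drinking water at 32 mg/kg/day from birth until harvest, and the untreated mice received no drug. Each library is the descending thoracic aorta of 1 mouse, perfused before collection, and the labels say that the adventitia was stripped while the study's methods say that perivascular fat was removed. The mouse numbers in the labels ran in separate ranges for hydralazine and untreated mice, so that treatment and any difference between cohorts cannot be told apart. The other libraries of the series come from *Col3a1* G938D/+ mice, the series' mouse line for vascular Ehlers-Danlos syndrome, VEDS. The whole segment was homogenised, so fewer cells of a type and less RNA per cell cannot be told apart.

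Hydralazine is a direct vasodilator of small arteries that lowers blood pressure. In laboratory studies it is known to inhibit the prolyl hydroxylases that mark hypoxia-inducible factors (HIF), to reduce DNA methylation and to block semicarbazide-sensitive amine oxidase. The aortic wall it acts on is built by smooth muscle cells, which lay down elastin, fibrillar collagens and their crosslinking enzymes mainly in early life and then carry pulsatile load through this matrix.

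*Col3a1* split each treatment 3 to 3. In the Col3a1-high stratum, hydralazine replicates 2, 3 and 5 had 16326, 16735 and 15849 CPM of the file total and untreated replicates 4, 5 and 6 had 14724, 15419.6 and 15732 CPM. In the Col3a1-low stratum, hydralazine replicates 1, 4 and 6 had 4430.5, 7652 and 5019 CPM and untreated replicates 1, 2 and 3 had 5178, 4594 and 4303 CPM. The values nearest the threshold were 7652 CPM in hydralazine replicate 4 and 14724 CPM in untreated replicate 4, and no library lay between them. These values chose the strata and carry no test. In the 6 libraries whose labels do give a harvest day, VEDS mice on hydralazine with bicalutamide or spironolactone until day 60, *Col3a1* lay between 5173 and 7413 CPM.

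Library totals ran from 5708827 to 8293289 counts, and 15899 to 16486 genes had a count in a library. *Myh11*, the smooth muscle myosin heavy chain, was abundant in every library, at 5189 to 9803 CPM after normalisation. Hydralazine replicate 4 stood apart in the Col3a1-low stratum by its matrix transcripts, and hydralazine replicate 5 by heart muscle transcripts, with *Myh6*, the atrial myosin heavy chain, at 426 CPM against 0.242 to 43.2 CPM in the other 11 libraries. *Alb*, the plasma protein albumin made by liver, ranged from 402 to 8409.8 CPM. From here on, the level of a gene is its normalised CPM in each library, in the order of the replicate numbers just given, and a log2 fold change is hydralazine over untreated with its standard error (SE).

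No single gene passed the test of hydralazine with stratum as a covariate. In edgeR's quasi-likelihood test, 0 of 12951 genes (0%) had an adjusted p of 0.05 or less, and the smallest adjusted p was 0.165. At an unadjusted p under 0.05, 1025 genes were higher (7.91%) and 892 lower (6.89%) in hydralazine aortas. Regardless of p, 52.6% of all genes were higher, and the counts within gene lists stand beside these shares. DESeq2, run on the same genes and covariate, called 46 genes higher and 14 lower, and in edgeR these 60 genes had adjusted p-values between 0.165 and 0.265. Without the covariate, 0 genes (0%) passed, with 689 higher (5.32%) and 541 lower (4.18%) at an unadjusted p under 0.05, and the smallest adjusted p was 0.497. With the covariate the SE was smaller for 10529 of 12951 genes, its median being 0.106 against 0.123 without it. For *Eln*, which encodes elastin, the SE was 0.17 with the covariate and 0.56 without. *Eln* follows *Col3a1*, so this gain is tied to how the strata were set. The covariate was read from these same libraries, which the p-values do not take into account.

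The gene with the smallest p was *Galnt16*, a Golgi enzyme that starts O-linked glycosylation. Its level was 244, 216 and 238 CPM in Col3a1-high hydralazine aortas, against 172, 143 and 166 CPM in untreated aortas of that stratum. Within the Col3a1-low stratum it was 169, 229 and 194 CPM in hydralazine aortas, against 144, 139 and 140.2 CPM in untreated aortas. The groups did not overlap in either stratum, and the log2 fold change was 0.51 ± 0.07 (edgeR, adjusted p = 0.165). *Bmp3*, a secreted member of the bone morphogenetic protein family, stood at 32.4, 31.3 and 34.4 CPM in Col3a1-high hydralazine aortas, against 21.3, 22.3 and 26.7 CPM in untreated ones. Its levels in the Col3a1-low stratum were 49.9, 46.0 and 44.7 CPM under hydralazine, against 33.5, 33.1 and 38.7 CPM untreated. *Bmp3* was thus higher with hydralazine within each stratum while the strata themselves stood at different levels, and its log2 fold change was 0.45 ± 0.07.

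Among lower genes the smallest p belonged to *Cldn12*, a claudin of tight junctions. It stood at 29.4, 33.2 and 33.6 CPM in Col3a1-high hydralazine aortas, against 43.7, 40.0 and 48.9 CPM in untreated ones, and at 33.7, 34.1 and 31.1 CPM in Col3a1-low hydralazine aortas, against 42.3, 41.8 and 38.1 CPM in untreated ones. Every hydralazine library was below every untreated library of either stratum, and the log2 fold change was -0.38 ± 0.07. *Pigz*, a mannosyltransferase of glycosylphosphatidylinositol anchors, was low in abundance, at 2.22 to 3.75 CPM in hydralazine aortas and 0.908 to 1.70 CPM in untreated aortas, again with no overlap over the 12 libraries (1.10 ± 0.20). *Kcnj15*, an inwardly rectifying potassium channel, ranged from 23.4 to 39.6 CPM under hydralazine and from 14.8 to 20.9 CPM without it. Its highest value, 39.6 CPM, was that of hydralazine replicate 4, and the log2 fold change was 0.62 ± 0.13 with this library and 0.48 ± 0.09 without it.

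**Figure D1:**
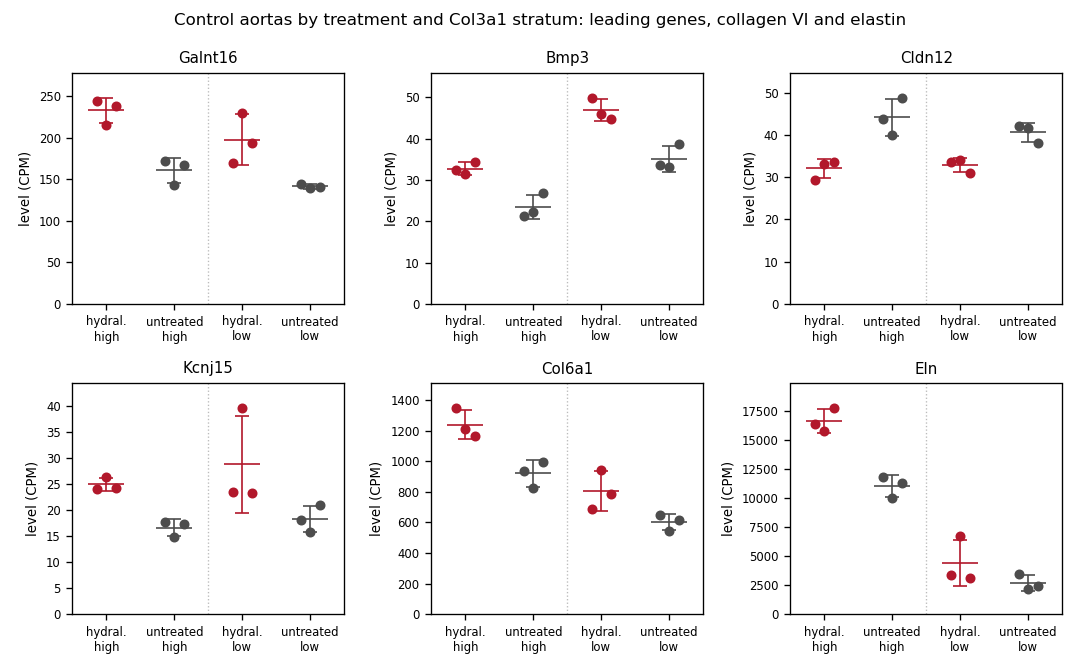
Normalised level (CPM, axes from 0) of *Galnt16*, *Bmp3*, *Cldn12*, *Kcnj15*, *Col6a1* and *Eln* in the 12 control aortas, with hydralazine in red and untreated in grey, the Col3a1-high stratum left and the Col3a1-low stratum right of the dotted line. Each point is a library, and bars give the mean and SD of 3 libraries. *Galnt16* stood at 169 to 244 CPM with hydralazine and 139 to 172 CPM without, while *Eln* differed far more between the strata than between the treatments.

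The 20 genes with the smallest p and a mean of at least 1 CPM comprised 16 higher and 4 lower genes, with unadjusted p-values from 1.28e-05 to 0.000558 and adjusted p-values from 0.165 to 0.265. Both *Col6a1* (0.43 ± 0.08) and *Col6a2* (0.42 ± 0.09), chains of the beaded-filament collagen VI, were higher, as was *Pxdn*, the peroxidase that crosslinks collagen IV (0.34 ± 0.07). *Col6a1* stood at 1345, 1207 and 1164.9 CPM in Col3a1-high hydralazine aortas, against 936, 826 and 996 CPM untreated, and at 685, 945 and 785 CPM in Col3a1-low hydralazine aortas, against 647, 543 and 613 CPM untreated. The third chain of this collagen, *Col6a3*, looked up after the other two, also had no overlap in either stratum (0.25 ± 0.07). *Sfrp2*, a secreted Wnt modulator (0.59 ± 0.11), *Angptl2*, a secreted angiopoietin-like glycoprotein (0.51 ± 0.11), and *Sulf2*, an extracellular heparan sulfate sulfatase (0.37 ± 0.08), were also on the higher side. In *Angptl2* hydralazine replicate 4 was again high within its stratum, where hydralazine aortas had 166, 266 and 156 CPM, against 143, 128 and 134 CPM in untreated aortas, and without it the log2 fold change was 0.39 ± 0.07. The kinase *Gsk3a* (0.38 ± 0.08), the glucose-6-phosphatase *G6pc3* (0.49 ± 0.09) and the sphingolipid regulator *Ormdl3* (0.25 ± 0.05) were higher. On the lower side stood *Sppl2a*, an intramembrane protease (-0.19 ± 0.04), and *Lypla1*, a depalmitoylating thioesterase (-0.28 ± 0.06). The remaining higher genes were *Rtl8a*, *Fam234a* and *Arfgap1*, the last a GTPase-activating protein of the Golgi, with log2 fold changes of 0.49, 0.39 and 0.23.

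The remaining lower gene of the 20 was *Mup17*, which encodes a major urinary protein secreted by liver, with a log2 fold change of -3.26 ± 0.60. It stood at 0, 0.121 and 0 CPM in Col3a1-high hydralazine aortas, against 0.605, 1.19 and 1.82 CPM untreated, and at 2.77, 0 and 3.99 CPM in Col3a1-low hydralazine aortas, against 16.2, 32.7 and 11.5 CPM untreated. The major urinary protein genes are near-identical copies whose reads the counting could split, so this value is uncertain. Of the 20 genes, 18 had no overlap between treatments within either stratum, the exceptions being *Sfrp2* and *Fam234a*. Since the smallest p-values chose these genes, their separation is a description. Over all genes, 124 (0.957%) were higher and 91 (0.703%) lower without overlap within both strata.

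The VEDS aortas, 6 on hydralazine and 6 untreated, were not used to choose the 20 genes. In a fit of all 24 libraries with stratum, 18 of the 20 had the same direction in VEDS as in control aortas, against 7686 of 12951 genes (59.3%) overall. At an unadjusted p under 0.05, 6 of the 20 (30.0%) differed the same way in VEDS aortas, against 4.87% of all genes. The difference was smaller in VEDS aortas for all 20, and 11 of the 20 had an unadjusted p under 0.05 for the difference between genotypes, against 642 of 12951 genes. Both are descriptions, since the 20 were chosen on their control values. For *Galnt16* the log2 fold change was 0.24 ± 0.08 in VEDS aortas and for *Bmp3* 0.32 ± 0.09.

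Most genes of the matrix lists were on the higher side with hydralazine, and none passed the test. Of 22 elastic fibre genes tested, 20 were higher. Their median log2 fold change was 0.19, against 0.01 over all genes, and 10 had an unadjusted p under 0.05, all higher, where 7.91% of all genes were higher at that level. *Eln* itself stood at 16354, 15764 and 17713 CPM in Col3a1-high hydralazine aortas, against 11773, 9970.2 and 11264 CPM in untreated ones. In the Col3a1-low stratum it was 3363, 6700.4 and 3154 CPM with hydralazine, against 3475, 2195 and 2455 CPM without. The treatments did not overlap in the Col3a1-high stratum and overlapped in the Col3a1-low stratum, where hydralazine replicate 4 had about the level of both its partners together. The log2 fold change of *Eln* was 0.65 ± 0.17 (edgeR, adjusted p = 0.265, DESeq2, adjusted p = 0.0295), and without hydralazine replicate 4 it was 0.45 ± 0.12. *Mfap5*, a microfibril protein, showed no overlap in either stratum, with 531.6, 497 and 508 CPM with hydralazine, against 429, 461 and 367 CPM untreated in the Col3a1-high stratum, and 249, 311 and 217 CPM, against 206, 203 and 196 CPM untreated in the Col3a1-low stratum (0.32 ± 0.08). The crosslinking enzyme *Loxl3* (0.27 ± 0.08) and *Fbln5*, the fibulin that carries elastin to microfibrils (0.20 ± 0.06), also had an unadjusted p under 0.05. The summed level of the 22 genes was 25149.5, 23861 and 26299 CPM in Col3a1-high hydralazine aortas, against 18731, 17569 and 18872 CPM untreated, and 8718, 13709.5 and 8828 CPM in Col3a1-low hydralazine aortas, against 9041, 7102 and 7937 CPM untreated. In the Col3a1-low stratum 2 of the 3 hydralazine sums were thus below an untreated one, and hydralazine replicate 4 was the exception.

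*Col3a1* aside, all 7 fibrillar collagen genes tested were higher (median 0.22), 3 of them with an unadjusted p under 0.05. These were *Col5a2* (0.30 ± 0.08) and *Col5a1* (0.22 ± 0.08), chains of the type V collagen that seeds fibrils, and *Col1a2* (0.34 ± 0.11), a chain of type I collagen. *Col5a2* did not overlap in either stratum, at 1737, 1754 and 1678 CPM with hydralazine, against 1522, 1528 and 1562 CPM untreated in the Col3a1-high stratum, and 1013, 1401 and 1098 CPM, against 933, 787 and 866 CPM untreated in the Col3a1-low stratum. *Col1a1*, the other type I chain, overlapped in both strata (0.25 ± 0.13), and *Col3a1*, which the rule used, had a difference of 0.20. With log2 *Col3a1* as a continuous covariate in place of the strata, these differences were smaller, at 0.17 ± 0.06 for *Col1a2*, 0.12 ± 0.08 for *Col5a1*, 0.03 ± 0.14 for *Col1a1* and 0.41 ± 0.09 for *Eln*. *Col6a3* (0.15 ± 0.05), *Mfap5* (0.21 ± 0.07) and the median of basement membrane genes (0.11) were also lower by over 1.5 times in that fit. Of 19 genes for collagen folding and processing, 17 were higher (median 0.17) and 10 had an unadjusted p under 0.05, all higher (7.91% of all genes). Among them were the chaperone *Fkbp10* (0.31 ± 0.07), the prolyl 3-hydroxylase *P3h3* (0.24 ± 0.06), the cartilage-associated protein *Crtap* (0.24 ± 0.07) and the collagen galactosyltransferase *Colgalt1* (0.16 ± 0.05). Of 20 basement membrane genes, 17 were higher (median 0.18), and of 12 matrix proteoglycan genes, 10 (median 0.10), 1 of them with an unadjusted p under 0.05. The collagen IV chain *Col4a1* (0.30 ± 0.10) and the laminin chain *Lama4* (0.22 ± 0.07) were on the higher side, while the laminin chain *Lamc3* was lower (-0.49 ± 0.15). Matrix genes share their course with *Col3a1*, so they are not independent of the covariate, and for elastic fibre genes the median ran from 0.15 to 0.22 when any 1 library was left out, the lowest without hydralazine replicate 4.

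Genes of transforming growth factor beta (TGF-beta) signalling were higher in 20 of 23 tested (median 0.16), where 52.6% of all genes were higher. An unadjusted p under 0.05 was found for 10, all higher, where 7.91% of all genes were. The median was 0.30 in the Col3a1-high stratum and 0.08 in the Col3a1-low stratum. Both inhibitory SMADs, which act as feedback brakes of the pathway, followed this split. *Smad6* stood at 59.4, 47.2 and 57.4 CPM in Col3a1-high hydralazine aortas, against 28.1, 31.0 and 22.6 CPM in untreated ones, without overlap (1.00 ± 0.17). The values overlapped in the Col3a1-low stratum, with 44.0, 45.0 and 31.2 CPM under hydralazine, against 30.6, 36.7 and 42.3 CPM without (0.13 ± 0.17). *Smad7* stood at 32.1, 30.5 and 26.0 CPM with hydralazine, against 17.1, 16.3 and 16.7 CPM untreated in the Col3a1-high stratum (0.82 ± 0.15), and at 30.8, 21.8 and 24.7 CPM, against 19.6, 23.9 and 28.0 CPM untreated in the Col3a1-low stratum (0.11 ± 0.15). The differences between the strata had unadjusted p-values of 0.00369 and 0.00661 in edgeR and adjusted p-values of 0.874 for each, so they did not pass. The ligand *Tgfb1* (0.48 ± 0.16) and *Thbs1*, a thrombospondin that can activate latent TGF-beta (0.66 ± 0.19), were higher over both strata. *Smad6* and *Smad7* were also higher with hydralazine in VEDS aortas, with log2 fold changes of 0.59 ± 0.20 and 0.67 ± 0.15.

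Ion channels and the receptors of vasoactive signals set smooth muscle tone. Of 36 calcium and potassium channel genes, 29 were higher (median 0.13), 10 of them with an unadjusted p under 0.05 (7.91% of all genes) and none lower at that level. Beside *Kcnj15*, the mechanosensitive cation channel *Trpv2* did not overlap in either stratum, at 16.6, 17.2 and 17.8 CPM with hydralazine, against 15.0, 13.4 and 15.2 CPM untreated in the Col3a1-high stratum, and 23.0, 25.9 and 26.9 CPM, against 19.4, 22.3 and 20.1 CPM untreated in the Col3a1-low stratum (0.27 ± 0.07). *Cacnb3*, a calcium channel beta subunit (0.26 ± 0.07), and the potassium channel *Kcnq1* (0.69 ± 0.22) were on the higher side. The list of vasoactive peptides and nitric oxide signalling was mixed, with 17 of 30 genes higher (median 0.07, or 0.03 without hydralazine replicate 1 or 2). Its smallest p was that of *Prkg1*, the cGMP-dependent kinase through which nitric oxide relaxes smooth muscle. *Prkg1* stood at 161, 137 and 147 CPM with hydralazine, against 163, 174 and 161 CPM untreated in the Col3a1-high stratum, and at 146, 144 and 144 CPM, against 172, 169.5 and 168 CPM untreated in the Col3a1-low stratum. Every hydralazine library was below every untreated one, though the closest pair nearly touched (-0.20 ± 0.05; edgeR, adjusted p = 0.265). The natriuretic peptide receptor *Npr1* (0.30 ± 0.11), the endothelin-converting enzyme *Ece1* (0.24 ± 0.09) and the prostacyclin synthase *Ptgis* (0.30 ± 0.12) were higher at an unadjusted p under 0.05.

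Matrix turnover genes were followed through 22 proteases and their inhibitors, of which 17 were higher (median 0.13) and 3 had an unadjusted p under 0.05, all higher (7.91% of all genes). In the Col3a1-high stratum 12 were higher and 10 lower (median 0.03), with 1 higher and 2 lower at an unadjusted p under 0.05, and in the Col3a1-low stratum 21 were higher (median 0.18). The 3 genes were the metalloproteinases *Mmp23* (0.24 ± 0.07), *Mmp14* (0.18 ± 0.07, or 0.09 ± 0.05 with continuous *Col3a1*) and *Mmp11* (0.37 ± 0.17). *Mmp14*, a membrane-bound collagenase, stood at 137, 125 and 128 CPM with hydralazine, against 108, 125 and 122 CPM untreated in the Col3a1-high stratum, and 63.1, 88.2 and 80.4 CPM, against 69.3, 65.7 and 63.1 CPM untreated in the Col3a1-low stratum. The nearest values met at 125 CPM in the Col3a1-high stratum, and the groups overlapped in the Col3a1-low stratum.

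Contractile genes, which define differentiated smooth muscle, differed little over both strata. Of 22 tested, 20 were higher with a median of 0.08, and without untreated replicate 5 it was 13, with a median of 0.02. Without untreated replicates 2 or 6 the median was 0.05 or 0.14. In the Col3a1-high stratum 21 were higher (median 0.14), 5 with an unadjusted p under 0.05 (9.27% of all genes). In the Col3a1-low stratum 14 were higher (median 0.02), 1 at that level (2.68%). The difference between the strata passed for no member (edgeR, smallest adjusted p = 0.874). *Acta2*, smooth muscle actin (0.08 ± 0.11), and *Myh11* (0.09 ± 0.09) were about as large as their errors. *Actg2*, the enteric smooth muscle actin, stood at 159 to 191 CPM in hydralazine aortas and 119.7 to 156 CPM in untreated aortas without overlap (0.33 ± 0.08), and the intermediate filament gene *Des* was the other member with an unadjusted p under 0.05 (0.46 ± 0.19). Of 20 integrin and focal adhesion genes, 17 were higher (median 0.16, or 0.09 with 14 higher without untreated replicate 5), led by the collagen receptor *Ddr1* (0.43 ± 0.11) and the integrin chain *Itgb5* (0.31 ± 0.10). Endothelial markers were higher in 13 of 14 (median 0.18), 4 with an unadjusted p under 0.05 (7.91% of all genes), including *Egfl7* (0.26 ± 0.08) and the claudin *Cldn5* (0.32 ± 0.11). Smooth muscle markers had a median of 0.08, which without untreated replicate 2, 5 or 6 was 0.05, 0.01 or 0.15, and their part in the differences of other lists was not tested.

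**Figure D2:**
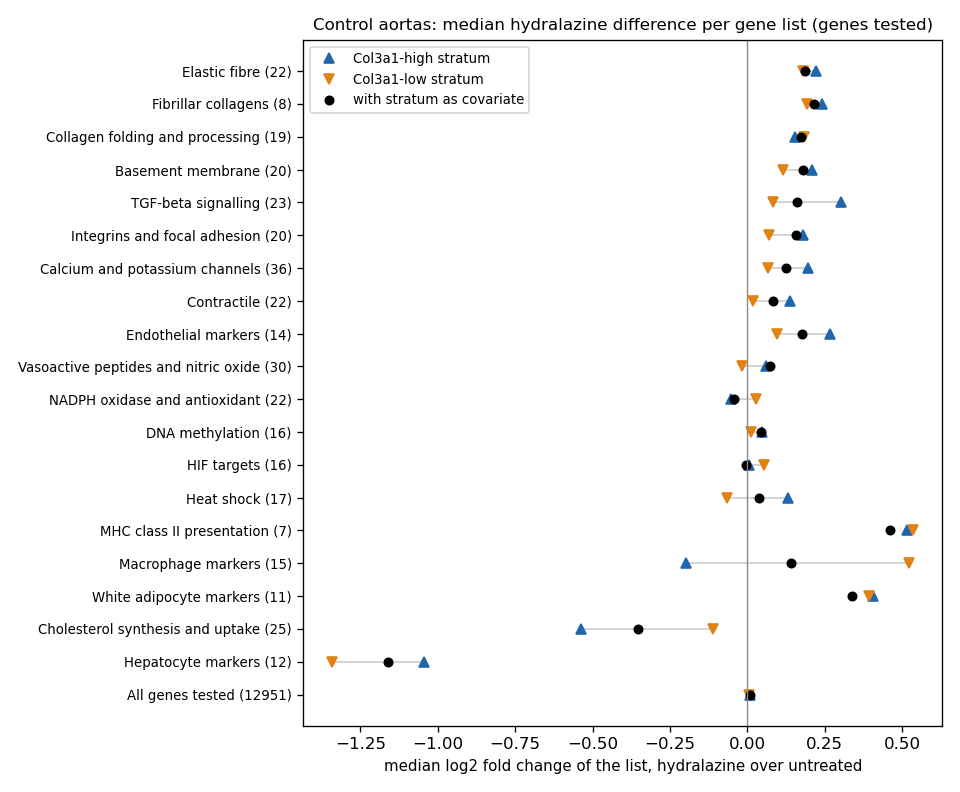
Median log2 fold change (hydralazine over untreated) of 19 gene lists and of all genes tested, with the number of genes tested in brackets. The fibrillar collagens include *Col3a1*, which set the strata. Black circles give the fit with stratum as covariate, blue upward triangles the Col3a1-high stratum and orange downward triangles the Col3a1-low stratum. The elastic fibre medians nearly coincide (0.22 in the high and 0.18 in the low stratum), while the cholesterol medians are -0.54 and -0.11 and the macrophage marker medians -0.20 and 0.52, beside 0.01 over all genes in each stratum.

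Cholesterol synthesis and uptake genes were on the lower side with hydralazine. Of 25 genes tested, 24 were lower with the covariate (median -0.35), 11 with an unadjusted p under 0.05, all lower, where 6.89% of all genes were lower at that level. The median was -0.54 in the Col3a1-high stratum, where 16 of 25 were lower at an unadjusted p under 0.05, and -0.11 in the Col3a1-low stratum, where 1 was, the shares over all genes being 5.31% and 2.08%. The difference between the strata had an unadjusted p under 0.05 for 4 of the 25 genes and passed for none (edgeR, smallest adjusted p = 0.874). Their summed level was 706, 945 and 849 CPM in Col3a1-high hydralazine aortas, against 1302, 1289 and 1067 CPM in untreated ones, without overlap. In the Col3a1-low stratum it was 659, 499 and 654 CPM with hydralazine, against 591, 816 and 628 CPM without, and the values overlapped. The smallest p belonged to *Hsd17b7*, which acts late in the pathway, at 8.38, 9.91 and 12.6 CPM with hydralazine, against 28.7, 20.1 and 19.7 CPM untreated in the Col3a1-high stratum, and 11.4, 5.80 and 6.95 CPM, against 7.61, 14.2 and 11.2 CPM untreated in the Col3a1-low stratum (-0.83 ± 0.22). The sterol carrier *Stard4* (-0.46 ± 0.14), the demethylase *Cyp51* (-0.39 ± 0.12) and the desaturase *Sc5d* (-0.70 ± 0.21) followed. Leaving out any 1 library moved the median of the list over -0.43 to -0.30.

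The list is known to be driven by the transcription factor SREBP2, encoded by *Srebf2*, which was the only member on the higher side (0.08 ± 0.10). *Hmgcs1*, which makes the precursor of mevalonate, is one of its classical targets, and both genes are given here for that role, after their values were seen. *Hmgcs1* stood at 108, 152 and 123 CPM with hydralazine, against 213, 243 and 157 CPM untreated in the Col3a1-high stratum (-0.68 ± 0.21), and at 84.6, 65.4 and 95.8 CPM, against 74.6, 117 and 82.4 CPM untreated in the Col3a1-low stratum (-0.15 ± 0.21). The SREBP recognition sequence was searched in RefSeq promoter windows (GRCm38.p6, 250 bases before to 50 after the start) as TCACNCCAC on both strands. The match in the *Hmgcs1* window is shown with its flanks, the capitals marking the motif, which begins 137 bases before the start. The whole stretch shown, flanks included, lies at chr13:119690199-119690237 on the plus strand:
Hmgcs1: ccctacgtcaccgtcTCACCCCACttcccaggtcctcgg
The same letters were found in the windows of 142 of 10330 tested genes (1.37%). Windows were held for 17 of the 25 genes of the list, too few for a share over the list, and *Hmgcs1* was the only one of the 17 with these letters. The match is a description of the reference sequence and was not measured in these libraries.

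Transcripts known from liver were also lower. All 12 hepatocyte markers were lower with hydralazine (median -1.16), and none of them was at 0 in the 12 libraries. With the covariate 9 had an unadjusted p under 0.05, where 6.89% of all genes were lower at that level. Within each stratum all 12 were lower (medians -1.04 high and -1.34 low), and 0 had an unadjusted p under 0.05. In VEDS aortas 7 were higher and 5 lower (median 0.04). Their summed level was 5145, 15910.4 and 1431 CPM in Col3a1-high hydralazine aortas, against 13699, 14389 and 14491 CPM untreated, and 2814, 933 and 2741 CPM in Col3a1-low hydralazine aortas, against 1709, 9561 and 3649 CPM untreated. Among Col3a1-high hydralazine aortas, replicate 3 had the highest sum of both lists. The lowest liver sum there was that of replicate 5, and the lowest cholesterol sum (706 CPM) that of replicate 2. Among Col3a1-high untreated aortas, replicate 6 had the highest liver sum and the lowest cholesterol sum (1067 CPM). Among Col3a1-low aortas, hydralazine replicate 4 had the lowest sum of both lists and untreated replicate 2 the highest. The part of liver transcripts in the cholesterol difference, and in that of *Mup17*, was not tested.

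**Figure D3:**
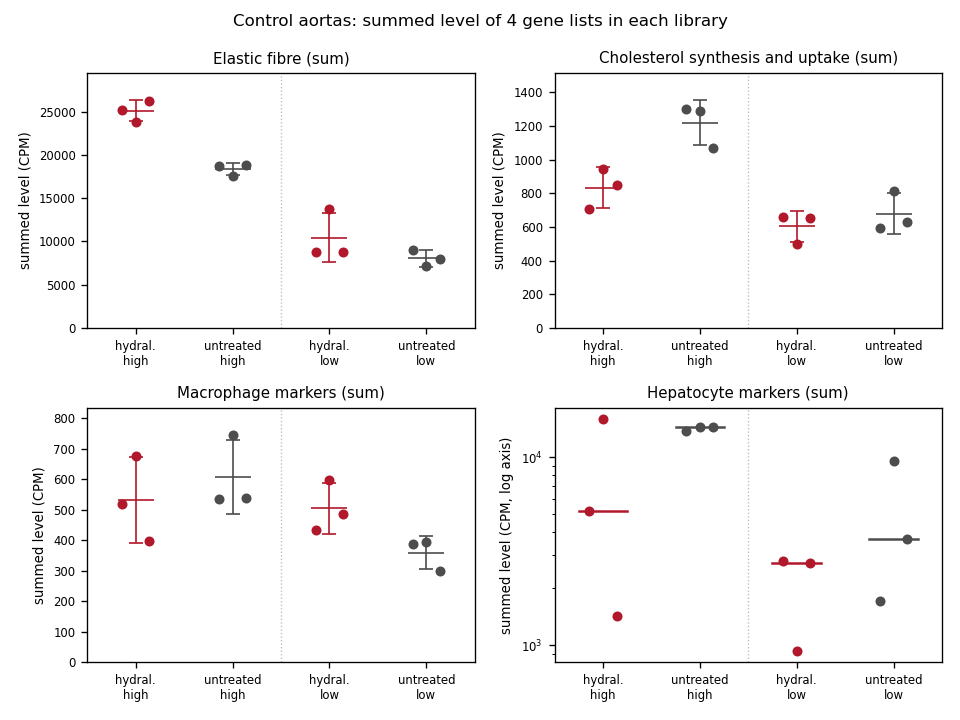
Summed level (CPM) of elastic fibre genes, cholesterol synthesis and uptake genes, macrophage markers and hepatocyte markers in each of the 12 control aortas, hydralazine in red and untreated in grey, Col3a1-high left of the dotted line. Bars give the mean and SD of 3 libraries, or in the hepatocyte panel, which has a log axis, the median. Cholesterol sums were 706 to 945 CPM with hydralazine and 1067 to 1302 CPM without in the Col3a1-high stratum.

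Genes tied to the known enzyme targets of hydralazine had medians near that of all genes. The 9 genes for prolyl hydroxylases and HIF had a median of 0.02, with *Egln2*, a HIF prolyl hydroxylase, at 0.19 ± 0.07 and *Egln1*, its relative, at 0.06 ± 0.07. Of 16 HIF targets, 7 were higher and 9 lower, and 2 had an unadjusted p under 0.05, the hexokinase *Hk2* (0.39 ± 0.15) and the mitochondrial protein *Higd1a* (-0.17 ± 0.05). The 16 genes of DNA methylation had a median of 0.04, and 1 had an unadjusted p under 0.05, the demethylase *Tet1* (-0.24 ± 0.10). Among 8 genes of amine oxidation and hydralazine metabolism, *Aoc3*, the semicarbazide-sensitive amine oxidase of smooth muscle, stood at 345, 299.7 and 294 CPM with hydralazine, against 215, 201 and 309 CPM untreated in the Col3a1-high stratum, and 218, 225 and 210.4 CPM, against 215, 201 and 212 CPM untreated in the Col3a1-low stratum (0.21 ± 0.10).

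Energy metabolism differed little in control aortas. Of 25 respiratory chain genes, 18 were higher with a median of 0.04 and 0 had an unadjusted p under 0.05, and of 20 genes of fatty acid oxidation, 13 were higher (median 0.06). Of 16 glycolysis genes, 12 were higher (median 0.12), and without untreated replicate 5 the median was 0.07. In VEDS aortas the medians of these lists were -0.21 and -0.30, with 25 and 20 genes lower, and that of glycolysis was -0.16, with 14 lower. White and brown adipocyte markers were also lower there, in 11 of 11 (median -0.38) and 8 of 8 (median -0.58), and their part was not tested. The difference between genotypes passed for no member in edgeR, the smallest adjusted p being 0.665 over all genes.

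Antioxidant genes split by member, and their direction was unlike in the 2 strata. Of 22 genes of NADPH oxidases and antioxidant defence, 7 had an unadjusted p under 0.05 with the covariate. Of these, 2 were higher (7.91% of all genes) and 5 lower (6.89%). Both higher genes encode secreted enzymes, the plasma glutathione peroxidase *Gpx3* and the extracellular superoxide dismutase *Sod3*. *Gpx3* stood at 48.2, 57.1 and 56.6 CPM with hydralazine, against 36.3, 47.5 and 37.5 CPM untreated in the Col3a1-high stratum, and 44.7, 30.0 and 43.9 CPM, against 28.8, 29.3 and 21.2 CPM untreated in the Col3a1-low stratum (0.50 ± 0.12). *Sod3* stood at 289, 258 and 275 CPM, against 221, 159 and 255 CPM untreated, and at 341, 411.2 and 355 CPM, against 312, 246 and 291 CPM untreated (0.38 ± 0.10). Neither gene overlapped in either stratum. The intracellular enzymes *Gpx1* (-0.31 ± 0.11) and *Prdx6* (-0.29 ± 0.11) were lower. In the Col3a1-high stratum 15 of the 22 were lower, with 2 higher and 5 lower at an unadjusted p under 0.05 (9.27% and 5.31% of all genes). In the Col3a1-low stratum 15 were higher, with 3 higher and 0 lower at that level (2.68% and 2.08%). The difference between the strata passed for no member (edgeR, smallest adjusted p = 0.874). In VEDS aortas *Gpx3* differed the other way (-0.54 ± 0.19), with an unadjusted p of 0.000986 for the difference between genotypes.

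Class II antigen presentation, by which myeloid and B cells show peptides to T cells, was followed through 7 genes. All 7 were higher (median 0.46, or 0.30 without hydralazine replicate 3), 4 with an unadjusted p under 0.05 (7.91% of all genes). *Cd74*, the invariant chain, stood at 77.6, 81.5 and 23.3 CPM with hydralazine, against 33.4, 57.5 and 36.3 CPM untreated in the Col3a1-high stratum, where hydralazine replicate 5 was the lowest of 6. In the Col3a1-low stratum it stood at 80.2, 58.0 and 61.7 CPM, against 46.3, 45.2 and 35.7 CPM untreated, without overlap (0.59 ± 0.25). The 15 macrophage markers were all higher with the covariate (median 0.14) and none had an unadjusted p under 0.05, but 14 of 15 were lower in the Col3a1-high stratum (median -0.20) and all 15 higher in the Col3a1-low stratum (median 0.52), 6 of them with an unadjusted p under 0.05, where 2.68% of all genes were higher. With 1 library left out, 12 to 15 were higher over both strata and the median ran from 0.07 to 0.26, lowest without hydralazine replicate 4 or untreated replicate 3 and highest without untreated replicate 5. *Csf1r*, the receptor on which macrophages depend, stood at 69.6, 83.7 and 49.5 CPM with hydralazine, against 67.3, 89.4 and 75.1 CPM untreated in the Col3a1-high stratum, and 45.6, 75.2 and 55.7 CPM, against 36.3, 47.6 and 33.0 CPM untreated in the Col3a1-low stratum. The difference between the strata had an unadjusted p of 0.027 and an adjusted p of 0.874 in edgeR.

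Other cell types could be followed by their markers. White adipocyte markers were higher in 10 of 11 (median 0.34) and brown adipocyte markers in 7 of 8 (median 0.34, with 1 library left out 0.22 to 0.51, lowest without hydralazine replicate 5 and highest without untreated replicate 5), and the summed white adipocyte level was 1505 to 2040.4 CPM with hydralazine and 1145 to 1476 CPM without. Adventitial fibroblast markers were present although the adventitia had been stripped, at a summed 2999 to 4299 CPM with hydralazine and 2998 to 3785 CPM without (median 0.08). Their median was -0.06 in the Col3a1-high and 0.24 in the Col3a1-low stratum, and 0.0031 over both without hydralazine replicate 4. The 6 cardiomyocyte markers tested had a median of 1.14, and without hydralazine replicate 5 it was -0.81. The part of these cells in the results was not tested, and no marker of these 4 lists was at 0 in all 12 libraries.

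Within the Col3a1-high stratum, 0 of 12951 genes (0%) passed, with 1201 higher (9.27%) and 688 lower (5.31%) at an unadjusted p under 0.05. The smallest p was that of *Tecpr1*, an autophagosome-lysosome tethering protein, at 41.1, 44.9 and 42.6 CPM with hydralazine, against 27.4, 28.6 and 30.8 CPM untreated (0.57 ± 0.07; edgeR, adjusted p = 0.0885). In the Col3a1-low stratum *Tecpr1* stood at 36.0, 35.1 and 35.0 CPM, against 34.7, 33.1 and 32.3 CPM untreated (0.08 ± 0.07). Within the Col3a1-low stratum, 0 genes (0%) passed, and 347 were higher (2.68%) and 270 lower (2.08%) at an unadjusted p under 0.05, with a smallest adjusted p of 0.911. Beside *Mup17* and *Galnt16*, its genes with the smallest p were *Pla2g7*, the lipoprotein-associated phospholipase (1.00 ± 0.20), *Ltc4s*, leukotriene C4 synthase (1.43 ± 0.30), *Wdfy4* (1.10 ± 0.23), *Lgals3*, galectin-3 (0.63 ± 0.14), and *Alox5*, which starts leukotriene synthesis (1.20 ± 0.27). These 5 are known from myeloid cells, and they were singled out after their values were seen. *Ltc4s* stood at 4.07, 3.11 and 3.55 CPM with hydralazine, against 1.13, 1.85 and 0.984 CPM untreated in that stratum, and at 2.06, 2.90 and 1.71 CPM, against 1.82, 1.87 and 1.82 CPM untreated in the Col3a1-high stratum (0.29 ± 0.30).

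Fitted separately, the strata gave the same direction for 7656 of 12703 genes (60.3%). Of 1427 genes with an unadjusted p under 0.05 in the Col3a1-high fit, 1095 (76.7%) had the same direction in the Col3a1-low fit. Of 690 genes at that level in the Col3a1-low fit, 469 (68.0%) had the same direction in the Col3a1-high fit. The 2 sets shared 99 genes, of which 93 (93.9%) had the same direction. Whether the sets shared more genes than unrelated sets would was not tested. The test of the difference between strata called 0 of 12951 genes (0%), with 414 (3.2%) more positive and 269 (2.08%) more negative in the Col3a1-high stratum at an unadjusted p under 0.05. The smallest p was that of *Wnk4*, a kinase that regulates ion cotransporters, whose difference had opposite signs in the strata. It stood at 2.69, 3.02 and 2.95 CPM with hydralazine, against 0.756, 1.02 and 1.21 CPM untreated in the Col3a1-high stratum (1.52 ± 0.29), and at 1.47, 1.56 and 2.51 CPM, against 3.40, 3.85 and 3.23 CPM untreated in the Col3a1-low stratum (-0.91 ± 0.26). The difference of the differences was 2.43 ± 0.39 (edgeR, adjusted p = 0.648). *Entr1* (0.52 ± 0.11), *Dmwd* (0.73 ± 0.16) and *Irf2bpl* (0.90 ± 0.21) followed in the same direction and *Slc16a9*, a carnitine exporter, in the other (-0.98 ± 0.23).

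**Figure D4:**
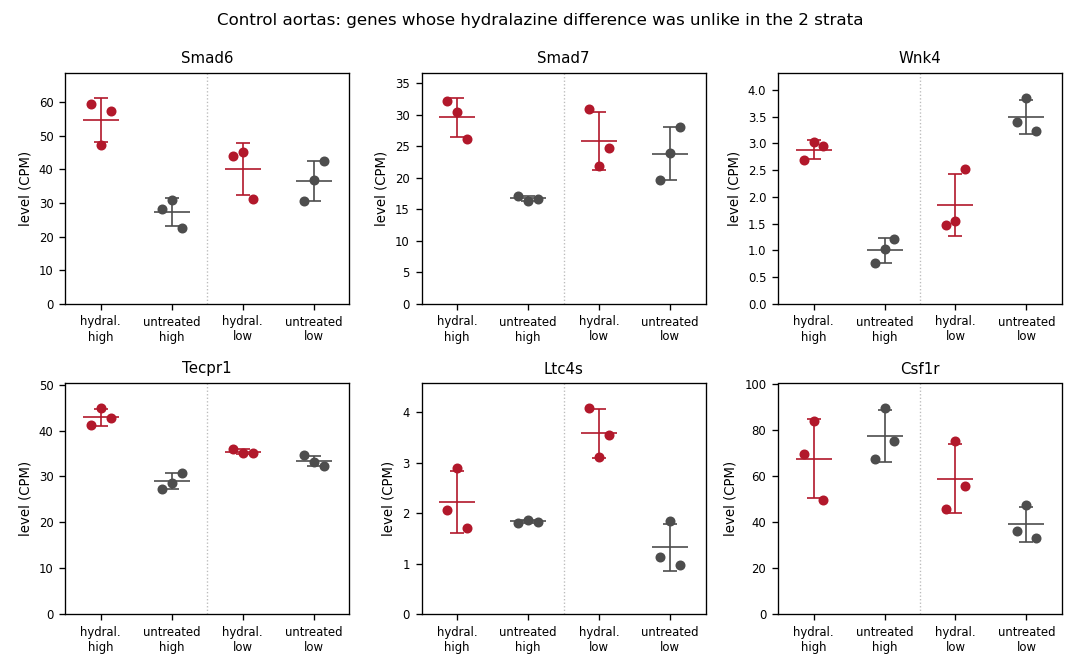
Normalised level (CPM, axes from 0) of *Smad6*, *Smad7*, *Wnk4*, *Tecpr1*, *Ltc4s* and *Csf1r* in the 12 control aortas, laid out by treatment and stratum with hydralazine in red and untreated in grey. Points are libraries and bars the mean and SD of 3. For *Wnk4* hydralazine libraries lay above untreated ones in the Col3a1-high stratum (2.69 to 3.02 against 0.756 to 1.21 CPM) and below them in the Col3a1-low stratum (1.47 to 2.51 against 3.23 to 3.85 CPM).

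Whether the hydralazine difference depended on genotype was tested with stratum in the model, as the control value minus the VEDS value. The test called 0 of 13407 genes (0%), with 440 (3.28%) more positive and 238 (1.78%) more negative in control aortas at an unadjusted p under 0.05, and the smallest adjusted p was 0.665. *Spg7*, a mitochondrial protease, had the smallest p, with 0.30 ± 0.07 in control and -0.08 ± 0.06 in VEDS aortas. *Rabl3* (-0.51 ± 0.14 in control and 0.32 ± 0.14 in VEDS aortas) and *Nmrk1*, a kinase of NAD synthesis (-0.54 ± 0.17 and 0.43 ± 0.17), differed in sign. *Gde1*, a glycerophosphodiesterase (0.21 ± 0.05 in control and -0.06 ± 0.05 in VEDS aortas), the protocadherin *Pcdh9* (-0.27 ± 0.09 and 0.20 ± 0.08) and the G protein subunit *Gnai3* (-0.14 ± 0.05 and 0.11 ± 0.04) completed the 6 with the smallest p. *Kcnj15* was 0.62 ± 0.13 in control and -0.14 ± 0.14 in VEDS aortas (unadjusted p = 0.000906, adjusted p = 0.665). Elastic fibre genes had medians of 0.19 in control and 0.16 in VEDS aortas. Other matrix lists had smaller medians in VEDS aortas. Those of fibrillar collagens, *Col3a1* included, were 0.22 in control and 0.09 in VEDS aortas. For collagen folding and processing they were 0.17 and 0.09, for basement membrane 0.18 and 0.06, and for proteoglycans 0.10 and 0.03. Cholesterol genes had medians of -0.35 and -0.04. The difference between genotypes was not tested for lists.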

How the data were processed

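The unit of the deposited files is the expected count per gene, which the authors estimated from stranded total-RNA libraries (TruSeq, NovaSeq) with CASAVA 1.8.4 and RSEM against mm39. Of the values in the 12 libraries, 97.6% were whole within a tolerance of 1e-06, and expected counts were rounded. Genes were tested with edgeR 4.0.16 in R 4.3.3 after TMM normalisation and filterByExpr, by quasi-likelihood F-test with stratum and treatment as terms, and p-values were adjusted by Benjamini-Hochberg over all genes tested at a threshold of 0.05. Differences within and between strata came from 1 fit of the 4 treatment-by-stratum groups. The SE was derived from the test, as the absolute log2 fold change divided by the square root of its F statistic. DESeq2 1.42.0 was run as an alternative, with other normalisations, filters, covariates and each library left out. The EBSeq test of the study was not used here. The edgeR fits with and without the covariate were also run on simulated counts with known fold changes, and the other fits were not.

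No 2 libraries held identical values. Libraries are separate mice, and their replicate numbers follow the order of deposition. All are labelled batch 1, and the extraction batches are not given per library in the sources used here, so no within-batch value is given. Named genes were the 20 with the smallest p and a mean of 1 CPM or more, then up to 4 per gene list by p, up to 6 for each difference of differences, and fixed tissue markers. Genes said to be singled out, looked up later or given after their values were seen are exceptions. Members and lists were chosen with earlier results of these data known.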

Additional observations from a re-analysis of the deposited data

Results flagged for a closer look

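Each gene and summed list of the text was examined within the 6 hydralazine and the 6 untreated libraries for a library far from the others, and 13 of 242 such groups had one. Chance alone flags about 1 in 20 groups where the 6 libraries come from 1 normal population. Each group here pools both strata, and groups share genes, so that rate is only a rough guide. In each case a single library lay far above the rest of its treatment.

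Hydralazine replicate 4, of the Col3a1-low stratum, was far above the other hydralazine libraries in *Kcnj15* (39.6 CPM, next 26.5 CPM) and *Mmp11* (14.0 CPM, next 10.8 CPM). Hydralazine replicate 5, of the Col3a1-high stratum, was far above in *Myh6* (426 CPM, next 16.3 CPM) and in summed cardiomyocyte markers (980.1 CPM, next 263 CPM). Hydralazine replicate 3, of the same stratum, was far above in *Alb* (8409.8 CPM, next 2783 CPM), summed hepatocyte markers (15910.4 CPM, next 5145 CPM), summed white adipocyte markers (2040.4 CPM, next 1655 CPM) and *Sc5d* (65.2 CPM, next 35.3 CPM). *Nmrk1* was far above in hydralazine replicate 2 (5.37 CPM, next 3.99 CPM) and *Wdfy4* in hydralazine replicate 1 (13.0 CPM, next 8.58 CPM). Among untreated libraries, *Aoc3* was far above in replicate 6 (309 CPM, next 215 CPM), *Myh6* in replicate 2 (43.2 CPM, next 16.4 CPM) and *Entr1* in replicate 3 (36.3 CPM, next 33.2 CPM).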

How the results depend on the processing

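Counts of genes passing the adjusted threshold stayed at 0 in edgeR under each alternative except 2. The fit of all 24 libraries called 1 gene higher, *Galnt16* (adjusted p = 0.0184). Leaving out 1 control library gave 0 to 2 genes called higher, the 2 being *Galnt16* and *Sfrp2* without hydralazine replicate 1 (adjusted p = 0.0182). DESeq2 called 46 genes higher and 14 lower. With log2 *Col3a1* as a continuous covariate the smallest adjusted p was 0.0717. Genes higher made up 53.5% of those with an unadjusted p under 0.05, 49.9% with RLE size factors, 49.3% with upper-quartile factors and 64.2% with 24 libraries. No gene changed sign among those rechecked, each in the fit or fits chosen for it. Not every named gene was rechecked in every fit, and *Myh6* and *Alb* were not rechecked with the covariate.

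Signs of list medians changed only where a library was left out, for lists near 0 and for cardiomyocyte markers. Without hydralazine replicate 5 the cardiomyocyte median was -0.81, and over the libraries left out it ran up to 1.78. Without hydralazine replicate 1 it was -0.0063 for the respiratory chain and -0.0043 for fatty acid oxidation. Without hydralazine replicate 3 it was -0.0020 for prolyl hydroxylases and HIF and -0.0057 for fatty acid oxidation. Without untreated replicate 2 it was -0.00042 for DNA methylation, without untreated replicate 3 -0.0067 for the respiratory chain and -0.0067 for fatty acid oxidation, and without untreated replicate 4 -0.0079 for prolyl hydroxylases and HIF. The highest medians with a library left out were 0.039 for prolyl hydroxylases and HIF, 0.073 for DNA methylation, 0.098 for the respiratory chain and 0.14 for fatty acid oxidation. The cause was not tested.

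No paired analysis was possible because the replicate numbers only follow the order of deposition and the labels link no hydralazine mouse with an untreated one. Depth limits genes near 1 CPM, such as *Pigz*, which rest on few reads per library.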
